A study of Homo sapiens with 4 samples.

Results

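The regions described here are 264 strong, isolated distal sites of open chromatin that were listed in both untreated SKBR3 libraries and in neither TWEAK library. SKBR3 is a long-established line of HER2-positive breast cancer cells, in which ERBB2 is amplified, and chromatin accessibility was profiled by ATAC-seq, in which the transposase Tn5 tags open DNA. Cells were seeded in serum, starved in Opti-MEM for 8 h and then either left untreated (2 libraries) or given 10 ng/ml TWEAK for 48 h with a fresh dose after 24 h (2 libraries). The methods call replicates of cell lines biological, and the labels name no batch or day. A single established line stands here for HER2-positive cells, and peak positions cannot check its identity through marker expression.

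TWEAK (TNFSF12) is a cytokine of the TNF superfamily that binds the receptor Fn14 (TNFRSF12A), recruits TRAF adaptors and activates NF-kB transcription factors. Open sites away from gene starts include enhancers, where transcription factors bind and act on genes over a distance, and sites held by the insulator protein CTCF. TFAP2 and FOXA proteins are well-known regulators of mammary luminal enhancers, and TEAD proteins are the DNA-binding partners of the Hippo pathway effectors YAP and TAZ.

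Peaks of the 4 lists that overlapped by at least 1 bp were merged into 307691 sites, of which 11664 had a peak in both untreated libraries and in no TWEAK library. Each peak was given a percentile, its rank by the deposited value within its own list. Requiring a percentile of at least 50 in both untreated libraries left 645 sites, requiring no TWEAK peak within 500 bp left 274, and requiring more than 1 kb to every protein-coding transcript start left 264. They were 0.0976% of the 270465 distal sites. The lost sites were thus chosen by their listed presence in each library, the deposited values behind the percentiles, the isolation and the distance, and those measures are given below as a description. The mirror-image rule gave 1263 sites gained with TWEAK (0.467% of distal sites), and sites held by 1 untreated and 1 TWEAK library under the same rule numbered 381 (0.141%). That mixed set was made of 102, 25, 158 and 96 sites in its 4 library pairs, each fewer than the lost sites. Leaving out 1 library relaxes the rule and gave 505 lost sites without untreated replicate 2, 839 without TWEAK replicate 2, 1178 without untreated replicate 1 and 1415 without TWEAK replicate 1.

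The number of peaks per list was 208407 and 228734 for the untreated and 218423 and 195388 for the TWEAK replicates, replicate 1 first. The background pileup recovered from each list, a measure of depth, was 3.59, 2.24, 2.63 and 1.85 in the same order, so that untreated replicate 1 was the deepest and TWEAK replicate 2 the shallowest. The part of depth in the losses was not tested. In cells measured in bulk, fewer cells open at a site and less opening in each cell cannot be told apart.

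Sequences of the central 201 bp are shown for the highest-ranked lost site and for 4 further high-ranked sites free of exons, which between them hold each of the 4 motifs described below (hg38, plus strand, 5′ to 3′, each named by its nearest protein-coding start). Capitals mark matches on either strand to TEAD (GGAATG), TFAP2 (GCCNNNGGC), FOXA (TGTTTAC) or CTCF, whose consensus is given by name alone. They show the central sequence of sites that were high in untreated cells and had no peak after TWEAK. Matches to the other motifs searched are not marked. The PPIF window also holds an AP-1 match, nearer to the centre than its TFAP2 match. The DAB2IP window also holds NF-kB, AP-1 and POU/OCT, the RFPL4B window NFI and C/EBP, and the GNAI1 window ELF/EHF.
PPIF, chr10:79275558-79275758, TFAP2: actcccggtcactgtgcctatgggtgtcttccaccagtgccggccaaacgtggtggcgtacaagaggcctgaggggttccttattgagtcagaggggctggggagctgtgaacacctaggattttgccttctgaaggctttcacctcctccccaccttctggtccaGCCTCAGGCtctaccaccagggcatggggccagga
DAB2IP, chr9:121735141-121735341, TEAD and TFAP2: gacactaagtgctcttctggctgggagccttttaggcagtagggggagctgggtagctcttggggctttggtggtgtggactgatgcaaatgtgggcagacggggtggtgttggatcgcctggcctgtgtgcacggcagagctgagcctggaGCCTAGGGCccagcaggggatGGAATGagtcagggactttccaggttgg
PIM3, chr22:49964906-49965106, 3 matches to TFAP2: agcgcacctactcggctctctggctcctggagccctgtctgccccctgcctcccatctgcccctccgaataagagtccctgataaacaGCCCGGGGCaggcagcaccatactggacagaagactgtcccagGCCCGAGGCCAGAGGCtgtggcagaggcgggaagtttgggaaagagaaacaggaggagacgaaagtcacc
RFPL4B, chr6:112845728-112845928, FOXA: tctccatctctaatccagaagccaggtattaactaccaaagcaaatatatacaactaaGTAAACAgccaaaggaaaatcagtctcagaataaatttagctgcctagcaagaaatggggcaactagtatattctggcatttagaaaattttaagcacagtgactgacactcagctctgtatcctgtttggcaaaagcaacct
GNAI1, chr7:80019270-80019470, CTCF: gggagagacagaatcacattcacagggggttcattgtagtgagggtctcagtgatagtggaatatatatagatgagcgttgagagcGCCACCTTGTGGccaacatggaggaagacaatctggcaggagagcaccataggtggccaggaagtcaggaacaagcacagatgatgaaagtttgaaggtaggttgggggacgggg

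Most lost sites lay just above the middle of their lists. In untreated replicate 1 the percentile ran from 50.3 to 98.0 with a median of 56.4, and in untreated replicate 2 from 51.0 to 96.5 with a median of 59.3. The pileup of reads behind the deposited value was 27 to 320 (median 32) in replicate 1 and 18 to 184 (median 23) in replicate 2. Divided by the background of the list, this was a height of 7.53 to 89.2 (median 8.92) and of 8.05 to 82.3 (median 10.3). The lower percentile of a site was under 60 for 205 of the 264 (77.7%) and reached 70 for only 15. Over the 264 sites the percentiles of both untreated replicates correlated with r = 0.693, across sites that share their libraries and were cut at the same threshold.

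A site absent from a TWEAK list has no measured value there. The smallest pileup listed was 8 reads in TWEAK replicate 1 and 7 in TWEAK replicate 2, which is 3.04 and 3.79 times the background. The lower untreated height of every lost site was at least 1.99 times the higher of those minima, and the median of the mean untreated height was 2.57 times. The percentile limit alone sets a lowest untreated height of 7.53 and 8.05, so that every site clears both minima by construction, and the plot of untreated heights shows the bulk of them close to that limit. Just inside the percentile limit stood sites nearest to ENSG00000289710 and to ZC3H12A, which encodes an RNase that limits inflammatory transcripts, both with 27 reads and a percentile of 50.3 in untreated replicate 1. Just outside stood sites nearest to RNF220 and RXRG, both with 26 reads and a percentile of 48.9, so a single read decided membership.

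**Figure D1:**
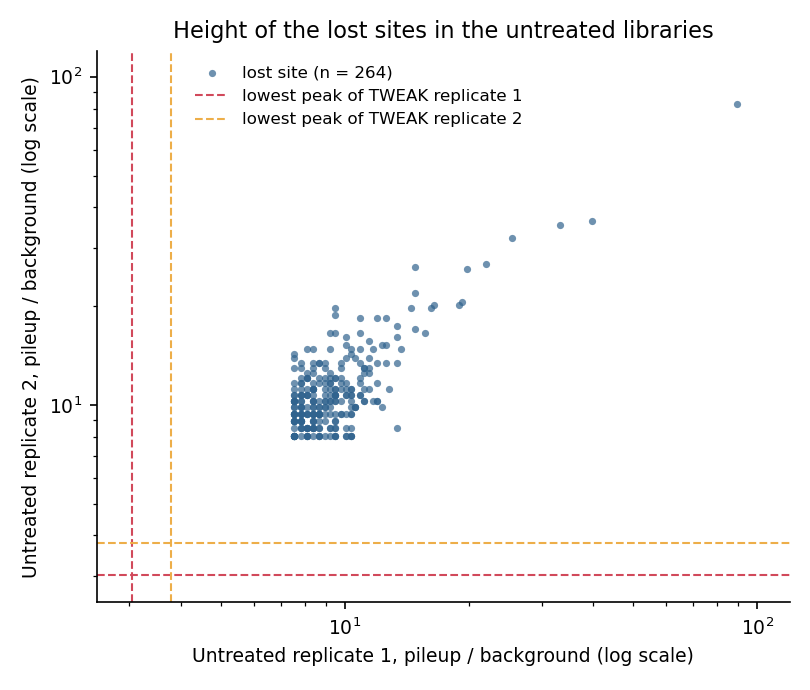
Pileup divided by the background of the list for each of the 264 lost sites (points) in untreated replicate 1 (x axis) and replicate 2 (y axis), both on log scales. Dashed lines mark the lowest peak listed in TWEAK replicate 1 (3.04) and replicate 2 (3.79), and the point at the top right is the site nearest to PPIF with heights of 89.2 and 82.3.

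One lost site stood far above the others. It lies at chr10:79275397-79275908 in an intron of ZMIZ1, a coactivator gene, 71561 bp from the start of PPIF, which encodes the mitochondrial cyclophilin of the permeability transition pore. Its pileup was 320 reads in untreated replicate 1 and 184 in untreated replicate 2, at percentiles of 98.0 and 96.5, and neither TWEAK list held a peak there. The nearest TWEAK peak lay 744 bp away in both TWEAK libraries. That neighbour was in all 4 lists, at percentiles of 98.1 and 98.4 in the untreated replicates and of 99.2 and 99.3 in the TWEAK replicates. Of a top-ranked pair of neighbouring peaks in untreated cells, only 1 was therefore listed with TWEAK.

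The next sites in rank followed at lower heights. The site nearest to GNA12, a G protein alpha subunit, lies in an annotated exon where GNA12 and AMZ1 overlap (chr7:2729265-2729771) and had 143 and 81 reads in the untreated replicates, with TWEAK peaks 1012 and 1010 bp away. The site nearest to IFI6, an interferon-induced mitochondrial protein, had 91 and 72 reads (chr1:27659862-27660381). Both were high in both untreated libraries, at percentiles from 82.4 to 89.6.

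The site inside an intron of GNAI1, an inhibitory G protein subunit, had 79 and 60 reads (chr7:80019120-80019639) and carried the CTCF motif printed above. Its neighbour 608 bp away was in all 4 lists, at percentiles of 61.1 and 68.5 in the untreated replicates and of 95.1 and 94.4 in the TWEAK replicates. Here the lost peak was the higher of the pair in untreated cells, and the neighbour ranked higher in both TWEAK libraries than in either untreated one.

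The site near SMIM1, which encodes the carrier of the Vel blood group antigen, had 71 and 58 reads (chr1:3774848-3775353), and a TWEAK peak lay 510 bp away, just past the isolation limit. The intronic site of DAB2IP, a Ras GTPase-activating protein, had 69 and 46 reads (chr9:121734977-121735491). Its neighbour 717 bp away was in both TWEAK lists, at percentiles of 50.3 and 17.9, and in neither untreated list. In this gene one listed position was lost and another, with TWEAK only, lay close by.

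Another 5 of the 12 highest sites were between the percentiles of 70.9 and 78.1. They lie nearest to PIM3, a serine/threonine kinase (68 and 45 reads, chr22:49964756-49965268), to TAFA3, a secreted chemokine-like protein (59 and 45 reads, chr1:112738524-112739024), and to CHMP2B, a subunit of the membrane-remodelling ESCRT-III complex (58 and 44 reads, chr3:87221617-87222121). The remaining pair were in introns of LACTB2, an endoribonuclease gene (56 and 37 reads, chr8:70661919-70662427), and of BBX, an HMG-box transcription factor gene (53 and 49 reads, chr3:107753447-107753973). For BBX the nearest TWEAK peak was 48094 bp away, and for CHMP2B 5332 bp away, so these sites were lost with no TWEAK peak close by. In lower percentile (70.9) BBX tied with the sites nearest to HS6ST3 and GOLGA5, and genomic order set it among the 12.

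Of the 12 highest sites, 9 had a TWEAK peak within 1 kb. Over all 264 lost sites 45 did (17.0%, 95% Wilson interval 13.0 to 22.05). The matching share for gained sites, an untreated peak within 1 kb, was 146 of 1263 (11.6%), a difference of 5.49 percentage points (95% Newcombe interval 1.02 to 10.8). The rule had used this distance up to 500 bp in both sets, so these shares and their difference are a description of what lies past that limit. At 10 kb the shares were 69.3% of lost sites (63.5 to 74.6) and 72.4% of gained sites (69.9 to 74.8), and these intervals overlap. Over all lost sites the median lower percentile was 55.3 for the 45 with a TWEAK peak within 1 kb and 54.8 for the others, and it was 56.4 against 54.2 when split at 2 kb or at 5 kb. The plot of rank against distance shows the few highest sites at the left and sites of lower rank at every distance up to 182651 bp.

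**Figure D2:**
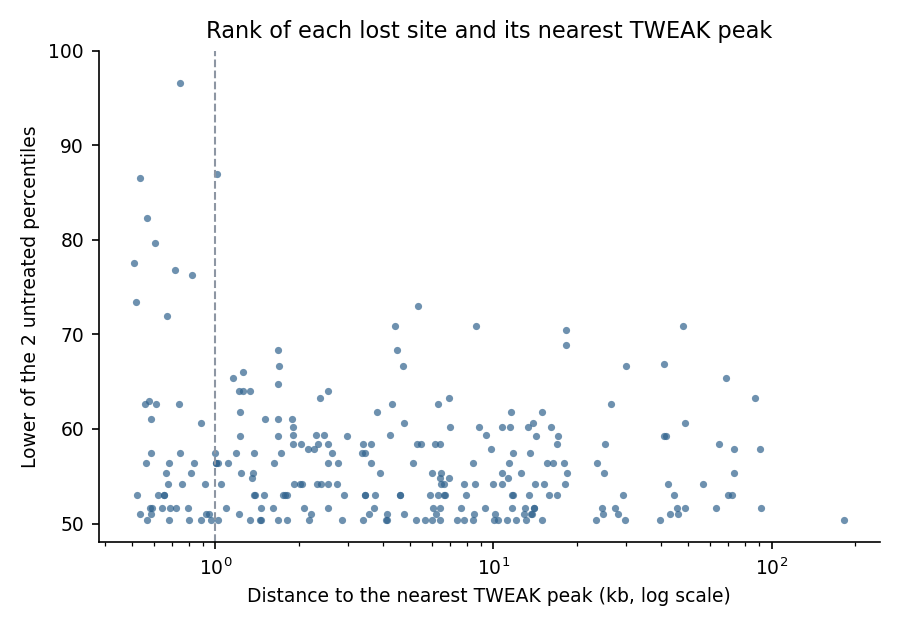
Lower of both untreated percentiles of each of the 264 lost sites (y axis) against the distance to the nearest peak of either TWEAK library (x axis, kb, log scale), with a dashed line at 1 kb. Of the 12 highest sites 9 lie left of the line, as do 45 of all 264.

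The 45 neighbours within 1 kb were mostly also listed in untreated cells. Of the neighbour sites 38 had a peak in at least 1 untreated library and 23 in all 4, and 18 outranked the lost site in both untreated libraries. Of all merged sites, listed with TWEAK or not, 42.8% had a peak in all 4 lists. The share with an untreated peak among all TWEAK-listed sites was not counted. The median percentile of the neighbours was 71.3 and 69.3 in the untreated replicates and 71.9 and 63.2 in the TWEAK replicates, over the neighbours listed in each. Peaks were all listed with the same width and without overlap within a list, and the part of the peak caller's choice between adjacent summits in these 45 losses was not tested. Without a TWEAK peak within 1000 bp there were 219 lost sites, and without one within 2 kb there were 172.

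Motifs were compared because sequence had not entered the rule. Within 100 bp of the peak centre the lost sites held the TEAD, TFAP2, FOXA and CTCF motifs more often than all 270465 distal sites did, and the NF-kB and AP-1 motifs less often, but of these 6 only TEAD and AP-1 also differed from strong distal sites present in all 4 libraries, and neither NF-kB nor AP-1 had an interval without 0 against the mixed set. Intervals below are 95% Wilson intervals for shares and Newcombe intervals for differences. Sites are not replicates, and these intervals describe sets of sites from these 4 libraries. With 20 motifs searched, the interval of lost minus all distal sites left out 0 for 8, of which 4 were higher and 4 lower in the lost sites. Against the 62653 strong distal sites in all 4 libraries, a comparison added after these values were seen, it left out 0 for 5, with TEAD higher and AP-1, ETS, KLF/SP and the E-box lower, and it included 0 for TFAP2, FOXA, CTCF and NF-kB.

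Against all distal sites TEAD had the largest difference of the 20. The motif was in 68 of the 264 lost sites (25.8%, 20.9 to 31.4), in 19.8% of gained sites, in 14.2% of the mixed set, in 18.9% of strong sites in all 4 libraries and in 16.3% of all distal sites. The difference from all distal sites was 9.44 percentage points (4.54 to 15.0), from strong sites in all 4 libraries 6.86 (1.95 to 12.5) and from gained sites 5.96 (0.55 to 11.9). The TEAD difference was not stable to the choice of libraries. It fell to 3.92 without untreated replicate 1, 3.29 without TWEAK replicate 2, 2.68 without untreated replicate 2 and 1.90 without TWEAK replicate 1, and for the last pair the interval included 0 (-0.52 to 6.35 and -0.035 to 3.997). At a percentile limit of 60 it was 0.63 (-6.84 to 12.1) over 59 lost sites.

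TFAP2 motifs were in 43 lost sites (16.3%, 12.3 to 21.2), in 8.63% of gained sites, in 5.51% of the mixed set and in 11.1% of all distal sites. The difference was 5.21 points (1.24 to 10.1) from all distal sites, 7.66 (3.35 to 12.8) from gained sites and 10.8 (5.94 to 16.1) from the mixed set. Strong sites in all 4 libraries held the motif in 14.5%, a difference of 1.77 points (-2.21 to 6.71). Among the 43 were 5 of the 15 sites with a lower percentile of at least 70, those nearest to PPIF, DAB2IP, PIM3, HS6ST3 and GOLGA5. With 1 library left out the difference from all distal sites was 1.66 (without TWEAK replicate 1), 2.28 (without untreated replicate 1), 2.53 (without TWEAK replicate 2) or 2.84 (without untreated replicate 2), each with an interval above 0. The interval included 0 with a window of 250 bp each side (1.90, -2.53 to 7.17), with no TWEAK peak within 1000 bp (3.99, -0.14 to 9.33) and over 5 kb from a start (3.86, -0.078 to 8.92).

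The FOXA motif was in 27 lost sites (10.2%, 7.12 to 14.5), in 8.55% of gained sites, in 3.67% of the mixed set and in 5.99% of all distal sites. The difference from all distal sites was 4.23 points (1.13 to 8.48), and it was 2.54 without TWEAK replicate 1 and 2.48 (-2.32 to 12.4) at a percentile limit of 60. From strong sites in all 4 libraries (8.07%) it was 2.15 points (-0.96 to 6.40), and from gained sites 1.68 (-1.85 to 6.15). None of these 27 sites reached a lower percentile of 70, and the highest was the intergenic site nearest to RFPL4B at 64.0. The shorter core TGTTTA, chosen after these values were seen, was in 26.5% of lost and 16.6% of all distal sites, a difference of 9.95 points (4.99 to 15.6), and in 18.7% of strong sites in all 4 libraries, a difference of 7.86 (2.89 to 13.5).

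CTCF motifs were in 19 lost sites (7.20%, 4.66 to 11.0) and in 3.16% of all distal sites, a difference of 4.04 points (1.49 to 7.81). Strong sites in all 4 libraries held it in 8.00%, a difference of -0.80 points (-3.35 to 2.97), with an interval that included 0. Gained sites held it in 1.35% and the mixed set in 15.5%, so the lost sites lay between them, with differences of 5.85 points (3.19 to 9.65) from the former and -8.29 (-13.0 to -3.29) from the latter. The motif lay within 50 bp of the peak centre in all 19 lost, all 17 gained and all 59 mixed sites that held it, and in 91.1% of such distal sites. The difference from all distal sites rose to 6.66 without TWEAK replicate 2, and it was 0.38 (-1.24 to 2.78) when only peaks with a deposited value of at least 5 entered the lists.

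Within 50 bp of the peak centre were the nearest TFAP2 match in 30 of 43 lost sites (69.8%, 54.9 to 81.4), the FOXA match in 20 of 27 (74.1%, 55.3 to 86.8) and the TEAD match in 46 of 68 (67.6%, 55.8 to 77.6). The shares over all distal sites with the motif, 65.5%, 63.9% and 59.8%, lie inside those intervals. Any of the 4 motifs was in 130 of 264 lost sites (49.2%, 43.3 to 55.2), in 43.0% of strong sites in all 4 libraries and in 32.8% of all distal sites, and since the 4 were picked for their excess these values are a description. TEAD and TFAP2 occurred together in 13 lost sites (4.92%, against 2.58% of strong sites in all 4 libraries and 1.70% of all distal sites). FOXA and TFAP2 did so in 6 (2.27%, against 0.816% and 0.463%), and TEAD and FOXA in 7 (2.65%, against 1.45% and 0.968%).

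The NF-kB motif, which TWEAK signalling acts through, was in 8 lost sites (3.03%, 1.54 to 5.86), in 5.89% of all distal sites, in 1.57% of the mixed set and in 47.3% of gained sites. The difference from gained sites was -44.2 points (-47.4 to -40.3), from the mixed set 1.46 (-0.89 to 4.41) and from all distal sites -2.86 (-4.35 to -0.02). At a percentile limit of 60 the last turned to 2.59 (-2.21 to 12.5), with peaks merged only when they shared most of their width it was -2.40 (-4.00 to 0.54), and from strong sites in all 4 libraries it was -2.47 (-3.97 to 0.37). The 8 sites included those nearest to SMIM1, DAB2IP and LPIN1, and 5 of the 8 had a TWEAK peak within 1 kb.

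The AP-1 motif (TGACTCA or TGAGTCA) was in 13 lost sites (4.92%, 2.90 to 8.24), in 9.60% of all distal sites, in 7.09% of the mixed set and in 19.0% of gained sites. The difference was -4.68 points (-6.71 to -1.36) from all distal sites, -8.00 (-10.04 to -4.67) from strong sites in all 4 libraries, -2.16 (-5.80 to 1.80) from the mixed set and -14.1 (-17.1 to -10.2) from gained sites. At a percentile limit of 60 the first was -2.82 (-6.94 to 6.57). Among the 13 were 3 of the 15 sites with a lower percentile of at least 70, those nearest to PPIF, DAB2IP and GOLGA5. The E-box CACCTG bound by ZEB and SNAI repressors was in 14.4% of lost and 22.2% of all distal sites, and the GC-rich KLF/SP box GGGCGG in 2.65% and 6.79%. The C/EBP motif TTGCNNAA, in 11.7% of lost and 11.6% of all distal sites, was in 19.5% of gained sites. Both AP-1 and C/EBP were thus less frequent in lost than in gained sites. The ETS motif CCGGAAG was in 0 of 264 lost sites (upper Wilson bound 1.43%) and in 1.17% of all distal sites.

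**Figure D3:**
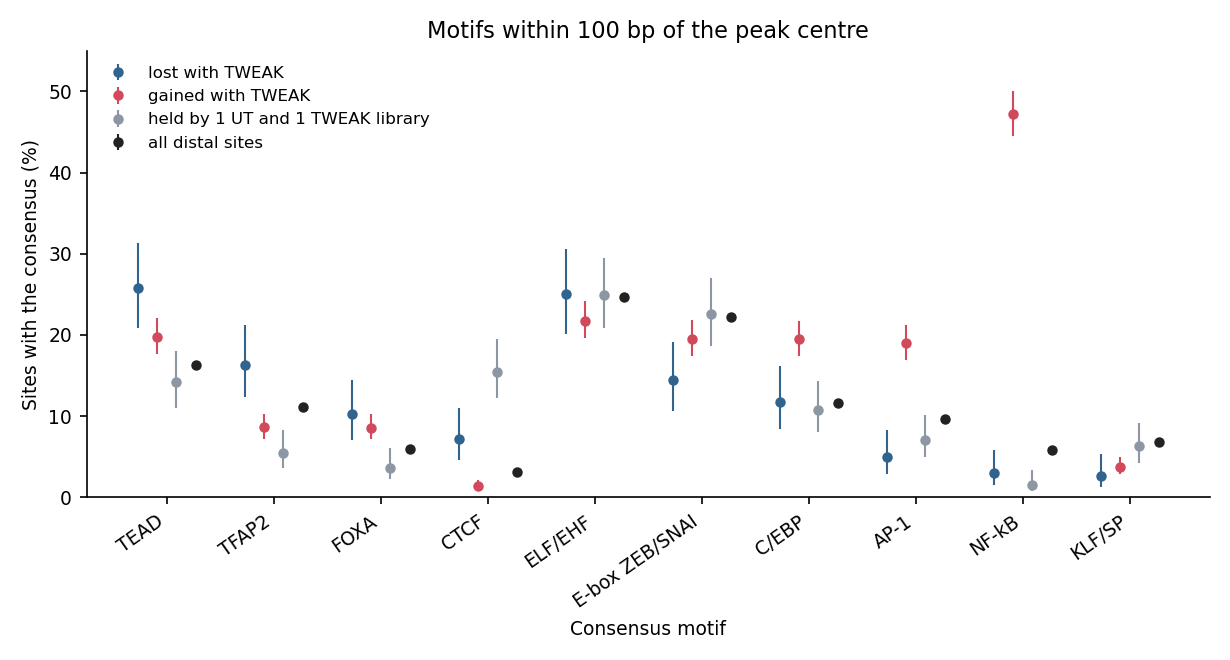
Share of sites (y axis, %) with each consensus motif (x axis) within 100 bp of the peak centre, for the 264 lost sites, the 1263 gained sites, the 381 sites held by 1 untreated and 1 TWEAK library and the 270465 distal sites. Bars are 95% Wilson intervals. The lost sites lie highest of the 4 sets for TEAD (25.8%), TFAP2 (16.3%) and FOXA (10.2%). For TEAD and FOXA their interval overlaps that of gained sites. The ELF/EHF share is also highest in lost sites, with an interval that overlaps those of all other sets.

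Base composition also set the lost sites apart from distal sites at large. The central 201 bp had a median GC content of 45.8%, against 48.3% for all distal sites, 46.3% for gained sites and 46.8% for the mixed set. The share of lost sites above the median of all distal sites differed by -8.28 points (-14.0 to -2.26) from that of all distal sites, and by 3.57 points from that of gained sites with an interval that included 0 (-2.76 to 10.1). Over the whole width of a peak the lost sites had a median GC content of 42.6%, gained sites 43.7%, the mixed set 41.9% and all distal sites 46.5%. The difference in the share above the median was then -23.1 points (-28.1 to -17.5) from all distal sites, -8.07 (-13.7 to -1.89) from gained sites and -2.21 (-9.04 to 4.86) from the mixed set. Against all distal sites both motif shares and composition differed. Against gained and mixed sites the central GC difference had an interval that included 0 (-0.79 points, -8.40 to 6.92, for the mixed set), while TEAD, TFAP2 and CTCF differed from both sets. The part of composition in the motif differences was not tested.

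The lost sites were spread over all 23 chromosomes used, near 260 different genes. Against all distal sites the interval of the difference in share left out 0 for 4 chromosomes, with fewer lost sites on chromosome 8 (-6.14 points, -7.97 to -3.00), chromosome 7 (-5.36, -7.19 to -2.22) and chromosome 20 (-3.28, -4.36 to -0.81) and more on chromosome 18 (1.53, 0.17 to 4.25). Gained sites were also few on chromosomes 8 (3.72%), 7 (6.02%) and 20 (2.69%), and the difference of lost minus gained had an interval that included 0 for all 4. By their centre 127 lay in introns (48.1%, 42.1 to 54.1), 125 between genes (47.3%) and 12 in exons (4.55%). All distal sites lay in introns in 46.3%, which is inside the interval of the lost sites. Gained sites were more often intergenic (55.3%), by 8.00 points (1.38 to 14.5). The median distance to the nearest protein-coding start was 33175 bp for lost, 42928 bp for gained and 29009 bp for all distal sites, beyond the 1 kb that the rule had set. Of the lost sites 67 (25.4%, 20.5 to 31.0) were over 100 kb from any such start, an interval that holds the 22.3% of all distal sites.

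Few lost sites were close to each other. Only 4 had another lost site within 10 kb, 6 within 100 kb and 59 within 1 Mb. The closest pair, 878 bp apart in start, lies in an intron of BBX, where the lower site had 39 and 24 reads in the untreated replicates beside 53 and 49 for the higher. Another pair is nearest to LINGO1, a receptor component in neurons, at chr15:77595405-77595907 (36 and 18 reads) and chr15:77599805-77600306 (45 and 30 reads). MARCKS, an actin-binding substrate of protein kinase C, and SMYD2, a lysine methyltransferase, were each nearest to 2 lost sites as well, 2 of them with 31 reads and the others with 30 and 35 reads in untreated replicate 1.

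Genes of pathways with a known part in these cells were then looked up by the distance to their starts. Of 176 genes in 9 lists, all found in the annotation, 5 had a start within 100 kb of a lost site, and 4 lost sites (1.52%, 0.591 to 3.83) accounted for them, against 3.12% of all distal sites and 2.06% of gained sites. The difference from all distal sites, -1.61 points (-2.54 to 0.71), had an interval that included 0. In the list of 34 TWEAK and NF-kB pathway genes the only lost site was one 69938 bp from CYLD, a deubiquitinase that limits NF-kB signalling (chr16:50671602-50672112), with 34 and 24 reads, 0.379% of lost sites against 0.418% of all distal sites. It lies in an exon and its nearest gene is SNX20.

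A site on chromosome 17 with 34 and 44 reads (chr17:41604308-41604809) lay 17413 bp from KRT14 and 76000 bp from KRT19, a basal and a luminal keratin gene, with KRT16 nearest, again 0.379% of lost sites, against 0.328% of all distal sites for that list. Of the 13 genes of fatty acid and sterol synthesis, LPIN1, a phosphatidate phosphatase, had a lost site in its intron 3010 bp from a start (chr2:11749648-11750152, 39 and 27 reads). That site had a peak of TWEAK replicate 1 at 611 bp, at a percentile of 6.62, and one of TWEAK replicate 2 at 699 bp. PPARG, a nuclear receptor that drives lipid storage genes, had one at 92320 bp (chr3:12194547-12195048, 37 and 24 reads). The 2 sites were 0.758% of lost sites against 0.254% of all distal sites, a difference of 0.503 points (-0.0467 to 2.47). In the 6 other lists 0 of 264 lost sites lay within 100 kb of the start of a listed gene (upper Wilson bound 1.43%). Just past that distance, at 104555 bp, was a lost site whose nearest gene is PRLR, of the luminal list (chr5:35335042-35335544, 35 and 25 reads). The lists are short, and matrix and BMP genes outside them were nearest to lost sites, such as LAMA4 at 3734 bp, LAMC1 at 29302 bp, BMPR1B at 3800 bp and BMP5 at 77776 bp, named after their values were seen. The shares of all distal sites were also under that bound, at 0.583% for the luminal transcription factors, 0.301% for the ERBB receptors and ligands, 0.311% for the mesenchymal and matrix genes, 0.327% for the AP-1 factors, 0.230% for the steroid-responsive genes and 0.396% for the TGF-beta, BMP and Notch genes. By span instead of start, 1 lost site lay in an intron of ERBB4, a neuregulin receptor (chr2:211455140-211455662, 34 and 18 reads), 861785 bp from the nearest start, that of CPS1.

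Both untreated libraries placed the lost peaks at nearly the same base. The median offset between the 2 peak centres was 10 bp, and 256 of 264 sites (97.0%, 94.1 to 98.5) had centres within 50 bp. For gained sites the share was 95.1% and for the mixed set 95.8%, within the error of the lost sites (differences of 1.88 points, -1.15 to 3.88, and 1.17 points, -2.08 to 4.09). The share was 92.6% for strong distal sites in all 4 libraries, to which no isolation limit applied, a difference of 4.33 points (1.49 to 5.83).

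Peaks around the lost sites were compared to ask whether the surroundings moved with them. Over 500 bp and up to 10 kb from a lost site lay 379 sites with a peak in all 4 lists, around 156 of the lost sites. Their mean percentile was 69.4 and 71.5 in the untreated replicates and 68.9 and 65.8 in the TWEAK replicates, so both TWEAK values were below both untreated ones. The difference was -3.12 percentile points (means of 70.5 ± 1.44 and 67.3 ± 2.13, SD, n = 2 libraries each). An exact permutation test over the libraries, two-sided, gave p = 0.33, the lowest that 2 against 2 libraries allow.

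Differences of the same sign were found away from the lost sites. All 110575 distal sites in the 4 lists had mean percentiles of 61.7, 64.4, 62.4 and 58.5 in the same order, a difference of -2.60 points, and the shared sites around the mixed set differed by -2.68. Around gained sites the difference was 2.18 points, but -0.089 when the distance was widened to 50 kb, where it was -3.09 around lost sites. None of these differences can pass a threshold of 0.05 in this design.

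The number of peaks over 500 bp and up to 10 kb from a lost site was 577 and 638 in the untreated replicates and 563 and 542 in the TWEAK replicates, a mean difference of -55 with TWEAK (exact permutation test, two-sided, p = 0.33). The list totals moved in the same direction, with a mean difference of -11662 peaks. Leaving out a library changed the members, and the difference was then -407 peaks around 1415 sites without TWEAK replicate 1, -266 around 1178 without untreated replicate 1, -61.5 around 505 without untreated replicate 2 and -20 around 839 without TWEAK replicate 2. Of the 817 sites within 10 kb of a lost site 37 were themselves lost by presence alone (4.53%, 3.30 to 6.18) and 24 gained (2.94%, 1.98 to 4.33), against 3.79% and 3.60% of all merged sites, both inside those intervals. Around gained sites 1.78% were lost and 8.50% gained.

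**Figure D4:**
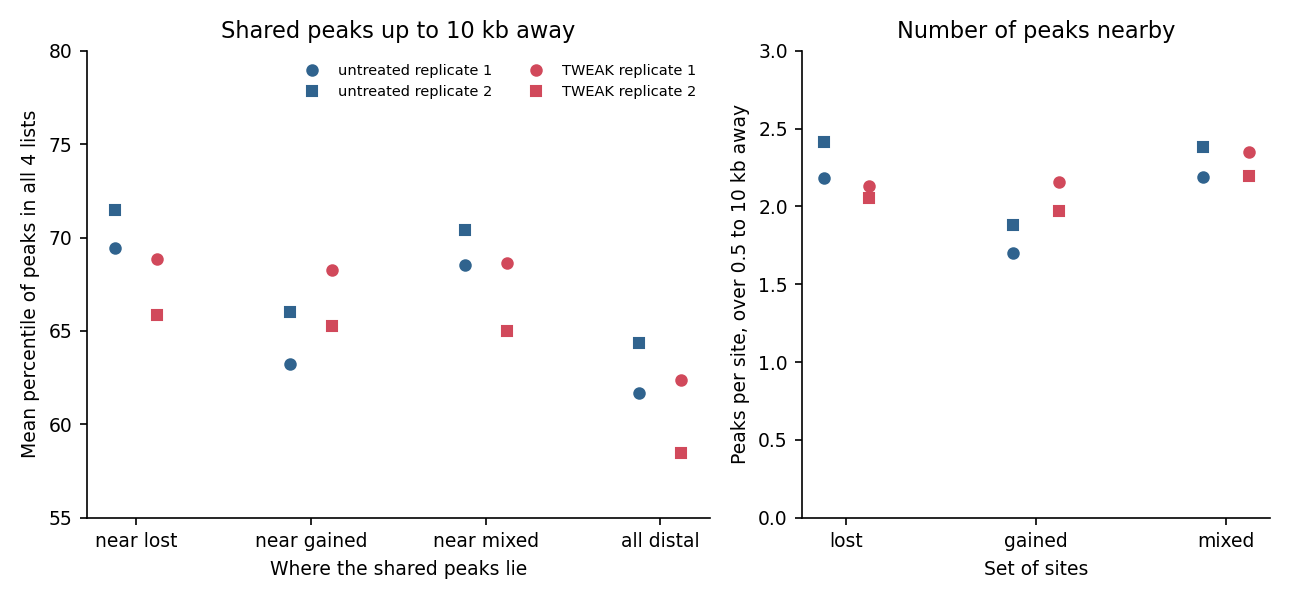
Left, mean percentile (y axis) of peaks present in all 4 lists over 0.5 and up to 10 kb from lost, gained and mixed sites and over all distal sites, with 1 point per library. Right, number of peaks per site at that distance, where the untreated libraries (577 and 638 peaks over 264 lost sites) lie above the TWEAK libraries (563 and 542).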

How the data were processed

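ATAC-seq was performed on 2 untreated and 2 TWEAK-treated SKBR3 libraries. Per the methods and labels, the authors trimmed adaptors with Trimmomatic, aligned reads to hg38 with Bowtie2, removed mitochondrial reads with Bamtools and duplicates with Picard, and called peaks per library with MACS2. Versions, settings and any shift of reads for the transposase are not given in the sources used here. Each deposited list held peaks of 1 fixed width without blacklisted regions and a value read here as the uncorrected -log10 p-value of the authors' peak caller. Each value matched a Poisson tail for a whole-number pileup over 1 background per list, with a largest relative error of 5.07e-06. Pileups count P(X ≥ k), and the other convention shifts them by 1. Values ranked peaks within a list, and pileups divided by the background of their list were set beside the minima of the other lists.

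Sites were built on chromosomes 1 to 22 and X from the deposited peaks and annotated with GENCODE release 44 (starts of protein-coding transcripts), in Python 3.11.15 with numpy 2.4.6, pandas 2.3.3 and scipy 1.17.1, tested on simulated data. Reads were not used here, so no differential test between treatments was run, and the study's DiffBind test was not repeated. Shares carry 95% Wilson intervals and differences Newcombe intervals, without p-values. Library means were compared by exact permutation. The members, gene lists, motifs and comparisons were chosen with earlier results of these data known. Sites named were the 12 with the highest lower untreated percentile, those nearest to or within 100 kb of a listed gene, those sharing a nearest gene, and 4 around the percentile limit. 1 of the 12 is not reported here. Sequences were read from hg38 for sites free of exons and outside chromosome 8. Alternatives varied the percentile, isolation, overlap, distance, window and peak filters and left out each library.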

Additional observations from a re-analysis of the deposited data

How the results depend on the processing

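The number of lost sites followed the limits of the rule: 785 at a percentile of at least 40, 59 at 60, 443 for peaks with a deposited value of at least 5, 424 for peaks at least 5 times over the background and, chosen after seeing the data, 172 with no TWEAK peak within 2 kb. Counting every transcript start of a protein-coding gene, also added later, gave 257. At a percentile of at least 60 the differences from all distal sites were 0.63 points for TEAD, 12.7 for TFAP2, 8.70 for CTCF and, with the sign turned, 2.59 for NF-kB. The CTCF difference was 0.38 with a deposited value of at least 5 and 0.51 for peaks at least 5 times over it, where AP-1 was at -7.05. NF-kB was at -4.52 with no TWEAK peak within 1000 bp and at -4.56 in windows of 250 bp each side, where the GC difference was -23.1. The shorter forkhead core moved the FOXA difference to 9.95. Leaving out 1 library gave 505 to 1415 lost sites, 1.90 to 3.92 points for TEAD, and 92.4% to 94.2% of sites with peak centres within 50 bp. The last has no value without an untreated library, since only 1 library then holds a site. In all, 41 of 50 values without a library and 62 of 78 others counted as unchanged. For this a motif or GC difference or a share stayed inside its interval in the main setting. A difference in flanking percentile or in nearby peaks kept its sign, and a count stayed within 1.5 times of the main one. Among them the difference in nearby peaks kept its sign but ran from -407 to -20 without a library. The cause of these changes was not tested. Samples with the same replicate number did not deviate together in percentile (correlation -0.0022 over 110575 distal sites in all 4 lists). Whether they shared a day or culture was not tested. With the replicate block the flanking percentile difference was -3.12 and the difference in nearby peaks -55, each with an exact sign-flip p = 0.5, the smallest that 2 pairs allow. The planned share of repeat-masked sequence was not run, because the reference is written in capitals throughout. An unlisted peak has no value, and the shallowest list starts at 3.79 times its background.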
